A study of Mus musculus with 6 samples.

Results

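The 104 genes described here stood out in a single mouse mammary cell line, 16IC_7391. They were selected on their RNA levels in 6 cell lines. A gene belonged to the set when it lay on chromosomes 1 to 19 other than 14, reached at least 10 CPM (counts per 1000000 counts of the library) in 16IC_7391, and had there at least 4 times the highest CPM of the other 5 lines. Of 23449 genes in the table, 21864 lay on those chromosomes, and 8710 of these reached 10 CPM in 16IC_7391, so that the 104 genes were 1.19% of the genes that could qualify. Their high level in 16IC_7391 is therefore how they were chosen by design, and it is described here without a test.

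The study compared 16IC cells, with the lines 16IC_7391, 16IC_1984 and 16IC_4982 (genotype 16IC/WT), with EIC cells, with the lines EIC_4026, EIC_NT and EIC_7559 (genotype EIC/WT). All 6 lines were female mammary cells of the FVB/N mouse strain. Their shared medium held 10% serum, epidermal growth factor, insulin, pituitary extract and 10 ug/mL doxycycline, so that no line without doxycycline is among them. As background that the sample labels do not give, doxycycline switches on wild-type ErbB2 (the receptor tyrosine kinase HER2) in EIC cells and the HER2 splice form without exon 16 in 16IC cells. Nothing in the labels explains NT or says which animals gave the lines, so p-values reflect only how much these samples vary, which may be technical. 16IC_7391 is a single line with no replicate of its own. Reads at Erbb2 cannot be divided between the mouse gene and a transgene. Erbb2 had 101 CPM in 16IC_7391, 155 and 152 CPM in 16IC_1984 and 16IC_4982, and 87.4, 67.3 and 74.2 CPM in EIC_4026, EIC_NT and EIC_7559. In every later sentence the other 16IC lines are given in the order 16IC_1984, 16IC_4982, and the EIC lines in the order EIC_4026, EIC_NT, EIC_7559.

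Mammary epithelium is built of milk-secreting luminal cells and contractile basal cells. Prolactin acts through the transcription factor STAT5 to switch on casein and whey protein genes in luminal cells, and after weaning the gland regresses with a rise of lysosomal proteases, complement and acute-phase genes and genes of cell death. Signals from HER2 run through the RAS-ERK cascade, which feeds the cell cycle, and through PI3K-AKT, which holds FOXO transcription factors and their starvation-response targets down.

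Libraries held 15621563 counts in 16IC_7391 and 15669164 to 17468498 counts in the other lines. The same rule found 2 genes high only in 16IC_1984, 0 in 16IC_4982, 2 in EIC_4026, 134 in EIC_NT and 12 in EIC_7559, so a set of this size was found in 16IC_7391 and in EIC_NT. Over 12266 expressed genes outside the set, which are not independent of each other, the Spearman correlation of log2 CPM was 0.873 and 0.879 between 16IC_7391 and the other 16IC lines and 0.868 to 0.887 between 16IC_7391 and the EIC lines. It was 0.989 between 16IC_1984 and 16IC_4982 and 0.978 between EIC_4026 and EIC_7559. EIC_NT had 0.915 with EIC_4026 and 0.906 with EIC_7559. A gene at a like level in a closely similar line cannot pass the rule. The counts of genes high only in 1 line thus depend on how alike the lines are, and 16IC_7391 and EIC_NT had no such close line. The size of this part was not tested. Mitochondrial genes took 3.39% of the counts in 16IC_7391, 2.0 and 2.22% in the other 16IC lines, and 1.50, 0.926 and 1.38% in the EIC lines; their part in what follows was not tested. Luminal markers summed to 4133 CPM in 16IC_7391, 15499 and 15116 CPM in the other 16IC lines, and 4296, 3594 and 3891 CPM in the EIC lines. The luminal marker Epcam had 50.4 CPM in 16IC_7391. It had 1229 and 1366 CPM in the other 16IC lines and at most 3.53 CPM in the EIC lines. Krt8, also luminal, had 573 CPM in 16IC_7391 and 1339 to 2809.7 CPM in the other lines. Other luminal markers went the other way. Ehf and Cd14 had 487 and 347 CPM in 16IC_7391 and at most 386 and 204 CPM elsewhere. Csn3 and Wfdc18, which belong to the set, are on this list too and add 386 and 143 CPM to its sum in 16IC_7391. Basal markers summed to 546 CPM in 16IC_7391, with 1545 and 1831 CPM in the other 16IC lines. In the EIC lines they summed to 505, 334 and 759 CPM. Among them, the keratin gene Krt5 was at or near 0 in all 6 lines, with at most 0.0621 CPM.

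Sequences of members that the results turn on are shown first, because they include neighbouring genes that were high together. The 3 complement protease genes C1rl, C1ra and C1s1 lie within 49.2 kb of chromosome 6, and Csn1s1 encodes a casein. In the deposited table these are C1rl (ENSMUSG00000038527, chr6:124493113-124510643), C1ra (ENSMUSG00000055172, chr6:124512405-124523443), C1s1 (ENSMUSG00000038521, chr6:124530345-124542359) and Csn1s1 (ENSMUSG00000070702, chr5:87666208-87682578), in GRCm38 coordinates. Each line gives RefSeq promoter sequence of build GRCm38.p6 in the direction of the gene, from 250 bases before to 30 bases after the RefSeq start. Capitals mark matches on either strand to the C/EBP site TTGCNNAA in the complement genes, and to the STAT site TTCNNNGAA and the AP-1 site TGANTCA in Csn1s1, with N for any base.
C1rl, chr6:124492863-124493142 (+): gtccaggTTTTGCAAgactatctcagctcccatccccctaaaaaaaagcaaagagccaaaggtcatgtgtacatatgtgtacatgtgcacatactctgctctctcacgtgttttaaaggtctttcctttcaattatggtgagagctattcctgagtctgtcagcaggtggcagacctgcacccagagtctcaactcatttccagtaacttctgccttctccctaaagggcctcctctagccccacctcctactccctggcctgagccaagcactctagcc
C1ra, chr6:124512371-124512650 (+): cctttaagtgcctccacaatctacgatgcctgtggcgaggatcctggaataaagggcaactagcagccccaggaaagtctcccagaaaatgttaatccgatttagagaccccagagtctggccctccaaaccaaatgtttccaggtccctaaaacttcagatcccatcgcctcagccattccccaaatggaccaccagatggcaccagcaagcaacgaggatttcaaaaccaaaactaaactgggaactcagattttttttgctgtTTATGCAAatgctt
C1s1, chr6:124542330-124542609 (-): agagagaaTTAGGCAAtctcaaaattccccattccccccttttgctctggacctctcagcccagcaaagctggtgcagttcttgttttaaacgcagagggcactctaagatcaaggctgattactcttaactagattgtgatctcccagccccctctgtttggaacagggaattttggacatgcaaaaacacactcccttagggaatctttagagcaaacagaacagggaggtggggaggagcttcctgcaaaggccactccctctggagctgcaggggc
Csn1s1, chr5:87665958-87666237 (+): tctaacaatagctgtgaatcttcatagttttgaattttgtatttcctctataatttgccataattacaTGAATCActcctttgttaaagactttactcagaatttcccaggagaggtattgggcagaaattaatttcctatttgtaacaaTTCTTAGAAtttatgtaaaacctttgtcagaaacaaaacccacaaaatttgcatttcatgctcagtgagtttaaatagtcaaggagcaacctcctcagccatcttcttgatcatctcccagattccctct
The C/EBP letters began at position -243 in C1rl, at 17 in C1ra and at -242 in C1s1, counted from the start site, and the start used for C1ra lies 216 bases inside the gene's 5′ end in the deposited table. In Csn1s1 the STAT letters began at -100 and the AP-1 letters at -182. C1ra also held the STAT letters, as TTCCCTGAA from position 33, beyond the stretch shown. Of all 27025 promoters in the RefSeq table, over their windows of 250 bases before to 50 after the start, 10.8% held the C/EBP letters, 8.47% the STAT letters and 7.93% the AP-1 letters. A match is a run of letters and not a measured site. Promoters could be found for 66 of the 104 genes, fewer than 80%, so a check of base composition or motifs over the set is void.

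Mir23b, the gene of a microRNA precursor, was also a member. The RefSeq mature sequence of its 5p arm, on the plus strand of GRCm38.p6, is shown with its seed, bases 2 to 8, in capitals.
mmu-miR-23b-5p, chr13:63300492-63300512: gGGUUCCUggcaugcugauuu
The libraries were not small-RNA libraries, so the counts at Mir23b describe the precursor region and not the mature microRNA.

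The members took 2.41% of all counts in 16IC_7391, with 0.295 and 0.332% in the other 16IC lines and 0.315, 0.349 and 0.356% in the EIC lines. Of the member counts in 16IC_7391, 33.2% came from Ctsd alone. Levels in 16IC_7391 ranged from 10.4 to 8012 CPM with a median of 66.1 CPM, and 39 members reached 100 CPM. The ratio of 16IC_7391 to the highest other line ranged from 4.01 to 64.9 with a median of 5.81. It was at least 5 in 66 members, at least 10 in 27 and at least 20 in 8. In bulk RNA, more cells of a kind and more RNA per cell cannot be told apart.

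**Figure D1:**
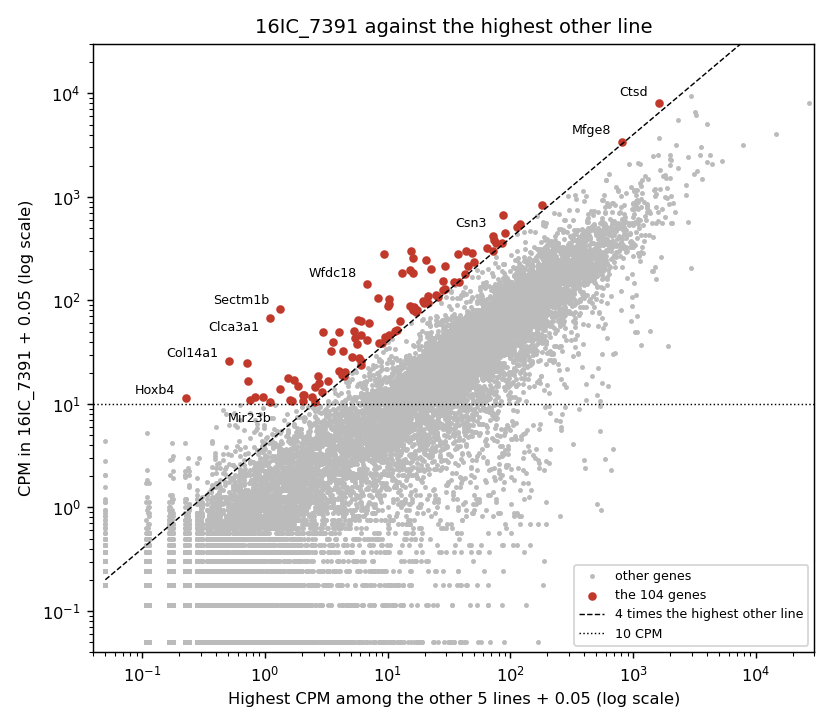
Each point is a gene on the chromosomes of the rule, with its CPM in 16IC_7391 on the vertical axis and the highest CPM among the other 5 lines on the horizontal axis, both with 0.05 added and on log scales. The 104 members (red) lie above the dashed line of a ratio of 4 and the dotted line of 10 CPM, with Ctsd and Mfge8 at the top and Clca3a1, Sectm1b, Hoxb4 and Col14a1 farthest from the dashed line.

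Close to the ratio threshold, Id2 (4.01), Tril (4.02) and Gm9750 (4.14) were just inside, and Serpine2 (just under 4), Adamts15 (3.97) and Spns3 (3.96) were just outside. Close to the level threshold, Serpina3i and Gm9750 (10.4 CPM each) and Wt1 (10.5 CPM) were just inside, and Aass, Fgf1 and Nkain2 (9.79, 9.67 and 9.35 CPM) just outside. In 82 members every other line had counts, and in 22 members at least 1 other line was at 0, with at most 3 lines at 0. Most members thus had counts in every other line, though these could be very few. Col14a1 had 1 and 4 counts in the other 16IC lines and 8, 3 and 5 counts in the EIC lines.

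Milk and secretory genes gave 8 members. Csn3, which encodes kappa-casein, stood at 386 CPM in 16IC_7391, 1.91 and 14.4 CPM in the other 16IC lines, and 27.0, 2.51 and 74.0 CPM in the EIC lines. Csn1s1, the alpha-S1-casein gene, stood at 15.9 CPM in 16IC_7391, 0 and 0 CPM in the other 16IC lines, and 0, 1.79 and 2.72 CPM in the EIC lines. Wfdc18, of the whey acidic protein family, stood at 143 CPM in 16IC_7391, 6.76 and 6.15 CPM in the other 16IC lines, and 0, 0.0597 and 5.15 CPM in the EIC lines. The next highest line was EIC_7559 for both caseins and 16IC_1984 for Wfdc18. Mfge8, a milk fat globule protein that also marks dying cells for uptake, had 3420.1 CPM in 16IC_7391, 415 and 509 CPM in the other 16IC lines, and 810.4, 672 and 809.6 CPM in the EIC lines. The 5 other lines stayed within a factor of 1.95 of each other, and 16IC_7391 lay 4.22 times above the highest of them. Parm1, a mucin-like membrane protein, had 301 CPM in 16IC_7391, 15.2 and 15.4 CPM in the other 16IC lines, and 12.5, 12.1 and 14.9 CPM in the EIC lines, a ratio of 19.5. Muc15 (ratio 4.51), Wfdc3 (9.07) and Oxtr, the oxytocin receptor (4.46), completed the group, with 95.1, 93.2 and 45.8 CPM in 16IC_7391. Oxtr is also on the list of basal markers and is the only member there.

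The set does not hold the whole milk program. Csn2, the beta-casein gene, which lies between Csn1s1 and Csn3 on chromosome 5, had 4.29 CPM in 16IC_7391, 0 and 0 CPM in the other 16IC lines, and 0.744, 78.4 and 3.59 CPM in the EIC lines. Its highest level was in EIC_NT, and so was that of Csn1s2a (14.8 CPM in EIC_NT, against 0.128 CPM in 16IC_7391). Wap was at 0 in 16IC_7391. Stat5a, the prolactin-activated transcription factor, had 108 CPM in 16IC_7391, 19.9 and 26.5 CPM in the other 16IC lines, and 49.0, 40.3 and 43.3 CPM in the EIC lines, which is 2.20 times the highest other line and below the threshold of the set. Prlr, the prolactin receptor, had 46.6 CPM in 16IC_7391, 24.3 and 36.9 CPM in the other 16IC lines, and 3.03, 11.9 and 2.03 CPM in the EIC lines, and Elf5, an alveolar transcription factor, had 2.75 CPM in 16IC_7391, with 44.0 and 64.0 CPM in the other 16IC lines and at most 0.116 CPM in the EIC lines. Csn2, Csn1s2a, Wap, Stat5a, Prlr and Elf5 are not members, and the milk list they come from was chosen after its values were seen. Of its 18 genes with a mean of at least 1 CPM, 7 (38.9%) were at 2 times or more the highest other line, which are 6 members and Stat5a, and 0 were at 0.5 times or less of the lowest, against 4.46 and 4.27% of all 13253 such genes. The rule used this contrast, so nothing is read from these shares.

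**Figure D2:**
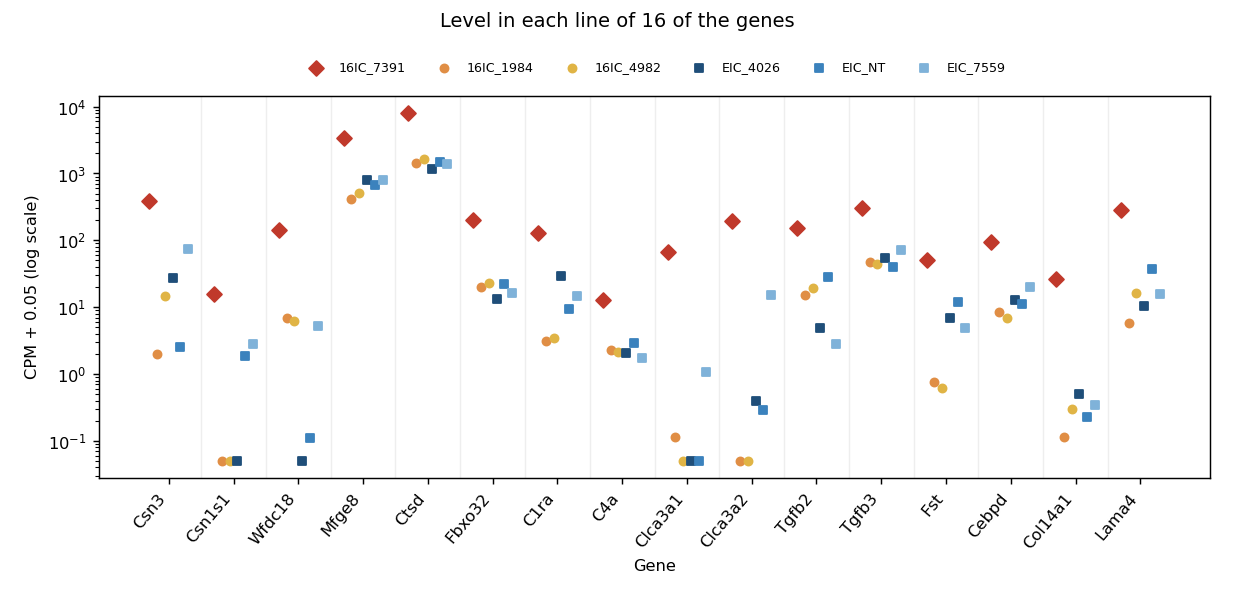
CPM + 0.05 on a log scale for 16 members in each line, with 16IC_7391 as a red diamond, the other 16IC lines as orange and yellow circles and the EIC lines as blue squares. 16IC_7391 is highest for every gene by the rule that chose them, and the order of the other 5 lines differs from gene to gene.

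Genes of the lysosome, membrane traffic and membrane lipids gave 8 members, among them the most abundant of the set. Ctsd, which encodes the lysosomal aspartic protease cathepsin D, had 8012 CPM in 16IC_7391, 1427 and 1619.6 CPM in the other 16IC lines, and 1149, 1475 and 1399 CPM in the EIC lines. Per length it was also highest, at 3441 FPKM (fragments per kilobase of gene length, scaled to library size, as deposited by the authors) in 16IC_7391, with 562 and 659 FPKM in the other 16IC lines and 472, 596 and 635 FPKM in the EIC lines. The 5 other lines differed by at most 1.41 times, so the level of Ctsd set 16IC_7391 apart from 5 closely similar lines. Sort1, a receptor that sorts proteins to lysosomes, had 214 CPM in 16IC_7391, 27.3 and 29.2 CPM in the other 16IC lines, and 10.2, 22.0 and 17.2 CPM in the EIC lines. Qsox1, a sulfhydryl oxidase of the secretory pathway, had 830.5 CPM in 16IC_7391, 113 and 144 CPM in the other 16IC lines, and 179.8, 97.9 and 174 CPM in the EIC lines. Outside 16IC_7391, the other 16IC lines lay above every EIC line for Sort1, and the 2 groups overlapped for Qsox1. Appl2, an endosomal adaptor, reached 551 CPM, Esyt3, which tethers the endoplasmic reticulum to the plasma membrane, 419 CPM, and the phospholipid scramblase gene Plscr2 214 CPM in 16IC_7391. Atp10d, of the lipid flippases, had 127 CPM and Plppr3, related to lipid phosphatases, 104 CPM there. The ratios of the 8 genes ran from 4.53 to 10.1.

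None of the other cathepsins was a member, and they differed in direction. Ctsa, Ctsh and Ctso were highest in 16IC_7391, at 1.75, 1.51 and 2.46 times the highest other line. Ctsc had 0.192 times the highest other line. Ctsb had 1902 CPM in 16IC_7391, 269 and 348 CPM in the other 16IC lines, and 641, 1555 and 854 CPM in the EIC lines, a ratio of 1.22 to EIC_NT. Ctsz was lower in 16IC_7391 than in every other line, at 0.768 CPM, with 18.0 and 55.8 CPM in the other 16IC lines and 251, 211 and 253 CPM in the EIC lines. In a list of lysosomal genes chosen after the values were seen, 3 of 32 genes with a mean of at least 1 CPM (Ctsd, Ctso and Man2b1) were at least 2 times the highest other line, which is 9.38% of the list, and Ctsz alone (3.12%) was at 0.5 times the lowest other line or less. Over all genes the shares were 4.46 and 4.27%. The list summed to 21473 CPM in 16IC_7391, with 8012 CPM of it from Ctsd. It summed to 7883 and 9224 CPM in the other 16IC lines, and to 8843, 11132 and 10931 CPM in the EIC lines. Ctsd passes by the rule, so nothing is read from the shares or sums of this list.

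Genes of starvation response and cell death gave 5 members. Fbxo32, the muscle-atrophy ubiquitin ligase atrogin-1 and a textbook FOXO target, had 201 CPM in 16IC_7391, 19.8 and 22.6 CPM in the other 16IC lines, and 13.2, 22.0 and 16.5 CPM in the EIC lines. Bmf, a pro-death member of the BCL2 family, had 107 CPM in 16IC_7391, 13.2 and 14.5 CPM in the other 16IC lines, and 20.4, 21.5 and 25.4 CPM in the EIC lines. Pdk4, the kinase that shuts pyruvate out of the mitochondrial cycle, had 80.3 CPM in 16IC_7391, 11.0 and 8.82 CPM in the other 16IC lines, and 0, 17.1 and 0 CPM in the EIC lines. Pdk4 split the EIC lines, with 0 counts in EIC_4026 and EIC_7559, while Fbxo32 and Bmf varied little outside 16IC_7391. Depp1, a FOXO-induced regulator of autophagy, had 48.9 CPM in 16IC_7391, 1.98 and 0.932 CPM in the other 16IC lines, and 2.23, 0.717 and 2.90 CPM in the EIC lines, a ratio of 16.9. Fas, the death receptor, had 39.0 CPM in 16IC_7391, 1.72 and 1.37 CPM in the other 16IC lines, and 6.64, 8.90 and 5.39 CPM in the EIC lines. In a list of FOXO targets chosen after the values were seen, 5 of 21 genes (the 4 members Bmf, Depp1, Fbxo32 and Pdk4, with Pik3ip1) were at least 2 times the highest other line and 0 were at 0.5 times the lowest or less. The first share is 23.8%, against 4.46% of all genes. The 4 members pass by the rule, so nothing is read from it. Txnip, Ccng2 and Sesn1, also FOXO targets, had 0.829, 0.603 and 1.02 times the highest other line.

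Complement, chemokine and immune genes gave 14 members. C1ra, the protease that starts the classical complement pathway, had 129.9 CPM in 16IC_7391, 3.06 and 3.36 CPM in the other 16IC lines, and 29.1, 9.38 and 14.4 CPM in the EIC lines. C1s1, the next protease in that pathway, had 62.5 CPM in 16IC_7391, 0.128 and 0.249 CPM in the other 16IC lines, and 5.95, 4.30 and 2.66 CPM in the EIC lines. C1rl, a related protease gene beside them, had 44.0 CPM in 16IC_7391, 1.34 and 0.994 CPM in the other 16IC lines, and 9.45, 3.05 and 7.82 CPM in the EIC lines. All 3 were lower in both other 16IC lines than in any EIC line. C4a, annotated as a processed transcript, had 12.9 CPM in 16IC_7391, 2.23 and 2.11 CPM in the other 16IC lines, and 2.0, 2.87 and 1.68 CPM in the EIC lines. The near-identical copies of these genes were not members: C4b had 61.1 CPM in 16IC_7391, 0 CPM in both other 16IC lines, and 27.0, 2.63 and 19.7 CPM in the EIC lines, C1rb reached 5.25 CPM and C1s2 6.15 CPM in 16IC_7391. How reads shared between C1ra and C1rb, C1s1 and C1s2, or C4a and C4b were counted is not given, so the division between copies is uncertain.

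Cx3cl1, a membrane-bound chemokine, had 356 CPM in 16IC_7391, 51.6 and 51.4 CPM in the other 16IC lines, and 85.5, 52.1 and 75.7 CPM in the EIC lines. F3, the tissue factor that starts blood clotting, had 284 CPM in 16IC_7391, 48.4 and 47.9 CPM in the other 16IC lines, and 31.8, 20.9 and 27.9 CPM in the EIC lines. Ccrl2, a chemerin-binding receptor, had 112 CPM in 16IC_7391, 2.36 and 6.21 CPM in the other 16IC lines, and 15.2, 7.76 and 24.5 CPM in the EIC lines. Both other 16IC lines lay below every EIC line for Cx3cl1, by a small margin from EIC_NT, and above every EIC line for F3. Sectm1b, a secreted and transmembrane protein that acts on T cells, had 82.4 CPM in 16IC_7391, 0.383 and 0.249 CPM in the other 16IC lines, and 0.172, 0.956 and 1.27 CPM in the EIC lines, a ratio of 64.7 with a counting interval of 42.5 to 104.0, and Sectm1a beside it reached 14.5 CPM in 16IC_7391. Cd1d1, which presents lipids to NKT cells, had 81.5 CPM in 16IC_7391, 0.128 and 0.684 CPM in the other 16IC lines, and 3.72, 16.1 and 6.37 CPM in the EIC lines. The acute-phase protease inhibitor genes Serpina3h and Serpina3i, the death-receptor family gene Tnfrsf25 and the Toll-like receptor partner Tril had 46.7, 10.4, 32.3 and 23.9 CPM in 16IC_7391. Serpina3n, another gene of that inhibitor family and no member, had 109 CPM in 16IC_7391, 0 and 0.249 CPM in the other 16IC lines, and 15.0, 0.239 and 89.0 CPM in the EIC lines. Of 31 listed cytokine, chemokine and complement genes averaging at least 1 CPM, 9 were at least 2 times the highest other line. This is 29.0% of the list, against 4.46% of all genes, and 0 were at 0.5 times the lowest or less. The 9 include the members C1ra, C1s1, C4a and Cx3cl1, which pass by the rule, so nothing is read from this share. C3, no member, had 5527 CPM in 16IC_7391, with 219 and 154 CPM in the other 16IC lines. In the EIC lines C3 had 1948, 709.5 and 2339.7 CPM.

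Growth factor genes and their antagonists gave 6 members. Tgfb2 had 154 CPM in 16IC_7391, 15.1 and 19.6 CPM in the other 16IC lines, and 4.81, 28.0 and 2.72 CPM in the EIC lines, and Tgfb3 had 302 CPM in 16IC_7391, 47.2 and 43.7 CPM in the other 16IC lines, and 55.2, 39.8 and 72.0 CPM in the EIC lines; both encode transforming growth factor beta ligands, which slow epithelial growth and act on matrix. The order of the other lines differed between them, with EIC_NT next for Tgfb2 and EIC_7559 for Tgfb3. Tgfb1, the third ligand, was lower in 16IC_7391 than in any other line, at 15.0 CPM, with 25.4 and 47.5 CPM in the other 16IC lines and 72.2, 155 and 99.9 CPM in the EIC lines. Fst, follistatin, which traps activins, had 51.4 CPM in 16IC_7391, 0.702 and 0.559 CPM in the other 16IC lines, and 6.87, 11.8 and 4.81 CPM in the EIC lines. Smoc1, a matrix protein that limits BMP signals, had 244 CPM in 16IC_7391, 6.70 and 6.77 CPM in the other 16IC lines, and 0.572, 0.239 and 20.5 CPM in the EIC lines. Pdgfc, a platelet-derived growth factor, and Pdgfrl, related to its receptors, had 179 and 85.6 CPM in 16IC_7391, with ratios of 4.21 and 5.24. Of 28 genes of the TGF-beta and BMP list, 4 were at least 2 times the highest other line, all of them members (Fst, Id2, Tgfb2 and Tgfb3), and 2 were at 0.5 times the lowest or less (Fstl3 and Ltbp1). The 4 members pass by the rule, so nothing is read from their share of 14.3%, against 4.46% of all genes.

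Matrix and adhesion genes gave 11 members. Prelp, a leucine-rich matrix proteoglycan, had 299 CPM in 16IC_7391, 0 and 0.373 CPM in the other 16IC lines, and 5.15, 6.81 and 43.2 CPM in the EIC lines. Lama4, a laminin chain of vessel and nerve basement membranes, had 281 CPM in 16IC_7391, 5.74 and 16.0 CPM in the other 16IC lines, and 10.5, 37.5 and 15.9 CPM in the EIC lines. Col11a1, a chain of a minor fibrillar collagen, had 256 CPM in 16IC_7391, 14.8 and 16.1 CPM in the other 16IC lines, and 4.29, 0.538 and 9.79 CPM in the EIC lines. Prelp was near 0 in the other 16IC lines and Col11a1 was lowest in EIC_NT, so the 5 other lines showed no common order. Col14a1, a fibril-associated collagen, had 26.1 CPM in 16IC_7391, 0.0638 and 0.249 CPM in the other 16IC lines, and 0.458, 0.179 and 0.290 CPM in the EIC lines, a ratio of 56.9 with a counting interval of 28.6 to 133. Col9a3 had 32.6 CPM in 16IC_7391, with a ratio of 7.61. Timp3, an inhibitor of metalloproteinases, had 63.4 CPM in 16IC_7391, 0 and 0.0621 CPM in the other 16IC lines, and 12.5, 11.8 and 4.34 CPM in the EIC lines. Fbln7, a fibulin, had 88.5 CPM in 16IC_7391, 0.191 and 0.124 CPM in the other 16IC lines, and 12.1, 2.69 and 15.1 CPM in the EIC lines. Both were nearly absent from the other 16IC lines and present in the EIC lines. The adhesion receptor gene Adgrg6 and the giant cadherin gene Fat4 went the other way, with 182 and 64.5 CPM in 16IC_7391, 13.0 and 11.6 CPM for Adgrg6 and 5.68 and 3.67 CPM for Fat4 in the other 16IC lines, and at most 4.46 and 1.08 CPM in the EIC lines. The clustered protocadherin genes Pcdhgb2 and Pcdhb22 had 41.7 and 12.2 CPM in 16IC_7391; the Pcdhgb genes share their last exons.

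Metabolic enzymes gave 8 members. Alpl, alkaline phosphatase, had 281 CPM in 16IC_7391, 0 and 0 CPM in the other 16IC lines, and 9.27, 9.20 and 6.49 CPM in the EIC lines, a ratio of 30.3. Cyp2f2, a cytochrome P450 best known from lung, had 507 CPM in 16IC_7391, 0.0638 and 0.684 CPM in the other 16IC lines, and 7.50, 113 and 0.984 CPM in the EIC lines. Fmo2, a flavin monooxygenase, had 82.3 CPM in 16IC_7391, 0 and 0.186 CPM in the other 16IC lines, and 9.22, 15.9 and 10.1 CPM in the EIC lines. In all 3, both other 16IC lines were below every EIC line. Aox1, aldehyde oxidase, and Aldoc, a glycolytic aldolase, had 319 and 236 CPM in 16IC_7391 and at most 64.7 and 50.1 CPM elsewhere. Sult1a1, a sulfotransferase, had 16.5 CPM in 16IC_7391, 0.511 and 0.684 CPM in the other 16IC lines, and 0.515, 0.597 and 0.232 CPM in the EIC lines, a ratio of 24.2. Lctl, of the klotho family, had 11.7 CPM in 16IC_7391.

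Channels and transporters gave 7 members. Kcnj15, an inward-rectifier potassium channel, had 673 CPM in 16IC_7391, 75.2 and 86.4 CPM in the other 16IC lines, and 38.8, 5.55 and 27.4 CPM in the EIC lines. Slc2a6, a hexose transporter, had 359 CPM in 16IC_7391, 3.57 and 2.49 CPM in the other 16IC lines, and 11.1, 76.0 and 3.53 CPM in the EIC lines. Clca3a2, of the chloride-channel-accessory family of secreted proteases, had 196 CPM in 16IC_7391, 0 and 0 CPM in the other 16IC lines, and 0.343, 0.239 and 15.0 CPM in the EIC lines. Its neighbour and close paralogue Clca3a1 had 67.6 CPM in 16IC_7391, 0.0638 and 0 CPM in the other 16IC lines, and 0, 0 and 1.04 CPM in the EIC lines, the largest ratio of the set at 64.9, with a counting interval of 40.8 to 109.9. Reads could be divided between the 2 Clca3a genes in an unknown way, but both were highest in 16IC_7391 and next highest in EIC_7559. Slc7a2 (cationic amino acids), Slc16a4 (a monocarboxylate transporter family member) and Slc39a4 (zinc) had 60.9, 50.4 and 39.9 CPM in 16IC_7391, with ratios of 8.64, 9.52 and 11.2.

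Transcription factors gave 7 members. Id2, an inhibitor of helix-loop-helix factors needed for mammary differentiation, had 152 CPM in 16IC_7391, 18.6 and 9.69 CPM in the other 16IC lines, and 12.8, 37.9 and 16.4 CPM in the EIC lines. Cebpd, a factor of the acute-phase response and of mammary regression, had 94.7 CPM in 16IC_7391, 8.42 and 6.84 CPM in the other 16IC lines, and 12.9, 11.0 and 19.8 CPM in the EIC lines. Hoxb4 had 11.5 CPM in 16IC_7391, 0.128 and 0 CPM in the other 16IC lines, and 0.172, 0.179 and 0 CPM in the EIC lines, a ratio of 63.9 that rests on 3 or fewer counts in each other line and has a counting interval of 21.5 to 313. Atoh8, Zfp991 and Wt1 were among the others, with 50.6, 15.0 and 10.5 CPM in 16IC_7391.

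Of the remaining members, 15 had roles that share no heading and 15 were noncoding or unconfirmed loci. Dclk2, a microtubule-bound kinase, had 24.6 CPM in 16IC_7391, 0.191 and 0.249 CPM in the other 16IC lines, and 0.401, 0.657 and 0.463 CPM in the EIC lines, a ratio of 37.5. Plekhg5, Pdzd7, Myo7a (an unconventional myosin) and Mtss1l had 151, 97.9, 87.8 and 76.6 CPM in 16IC_7391, and C130074G19Rik had 110.2 CPM in 16IC_7391, 2.62 and 6.59 CPM in the other 16IC lines, and 21.3, 0 and 19.9 CPM in the EIC lines. Gng7, Kank4, Rassf10, Dnhd1, Ankrd44, Kifc2, Crybb3, Cmya5 and Prss12 ranged from 10.7 to 43.0 CPM there. Among noncoding loci, A530020G20Rik, annotated as antisense and in the same run as F3 without overlapping it, had 185 CPM in 16IC_7391, 16.0 and 12.5 CPM in the other 16IC lines, and 4.06, 11.0 and 6.08 CPM in the EIC lines. A330023F24Rik and Lncppara had 105 and 49.6 CPM in 16IC_7391, with ratios of 12.7 and 12.5. Gm20045, Gm44873, 4632427E13Rik, Gm44154, BE692007, Gm37090 and Gm9750 lay between 10.4 and 20.2 CPM. The authors' annotation gave 86 of 104 members as protein coding, 82.7% against 97.3% of all genes at 10 CPM or more in 16IC_7391.

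**Figure D3:**
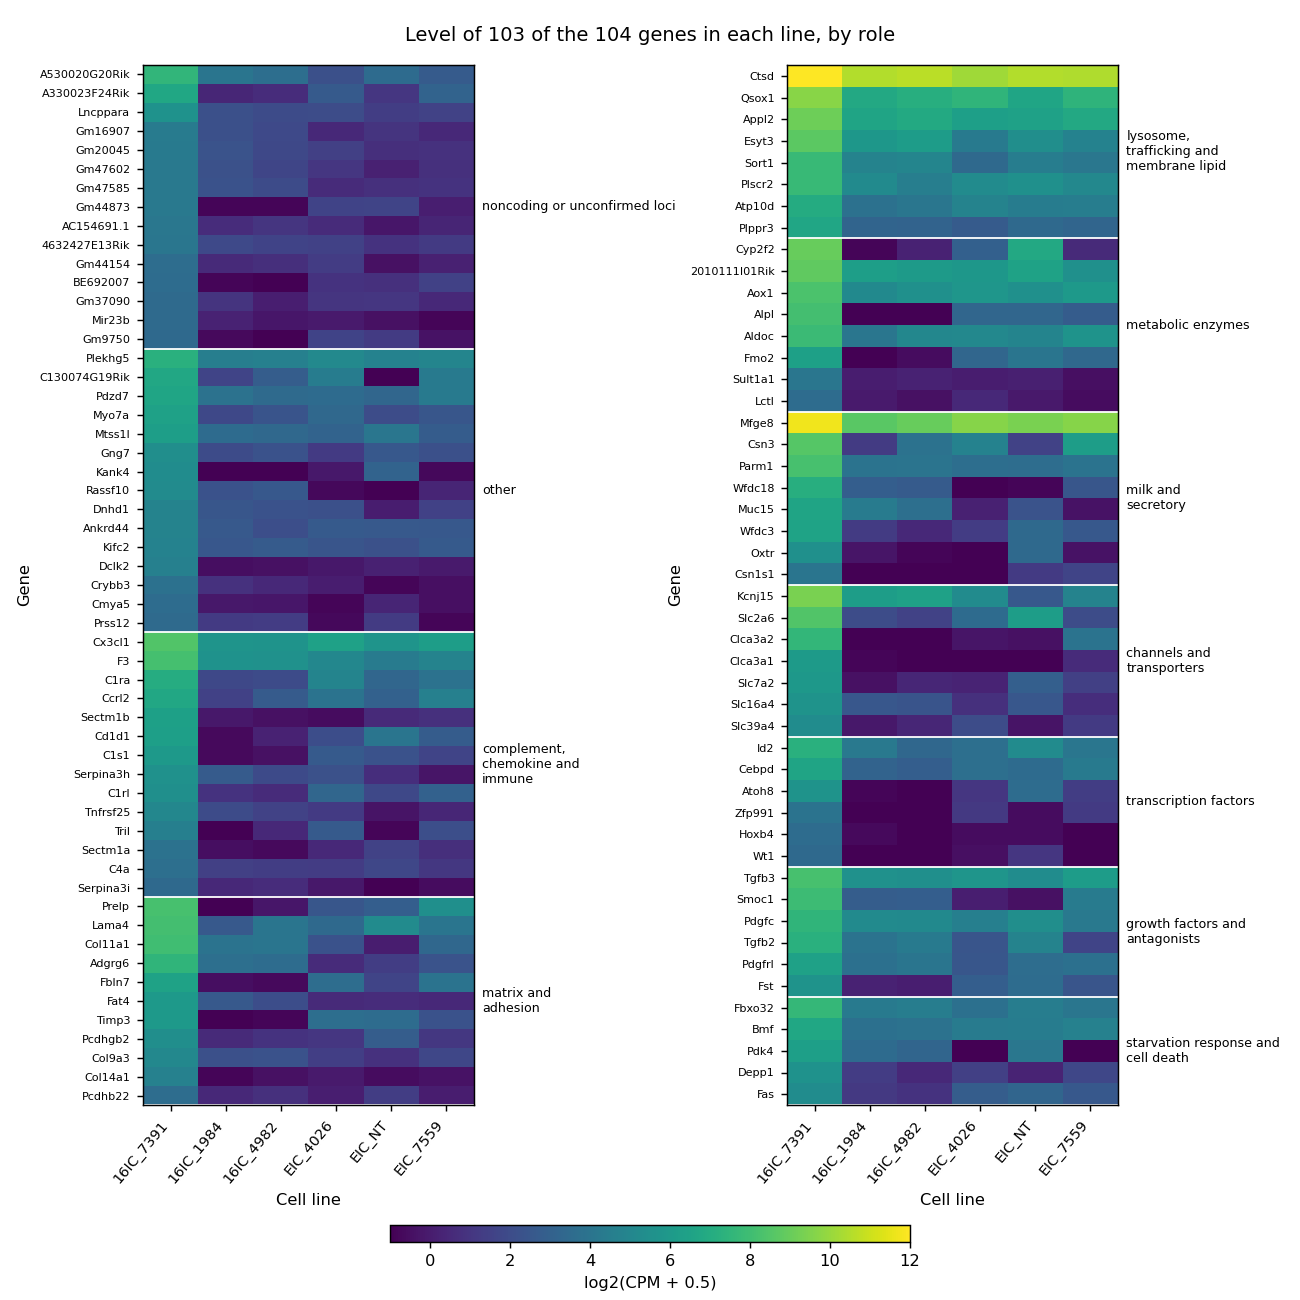
Colour gives log2(CPM + 0.5) of 103 of the 104 genes (rows, grouped by role, highest in 16IC_7391 on top) in the 6 lines (columns). The left column of each panel, 16IC_7391, is brighter than the other 5 by the rule, and the blocks show no shared order of those 5 lines.

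The members were spread over the genome with some close neighbours. Their share of the genes at 10 CPM or more ran from 0.225% on chromosome 17 (1 gene, C4a) to 2.52% on chromosome 3 (12 of 476 genes). With members joined where at most 250 kb separated them, 32 fell into 14 runs and 72 stood alone. Besides the chromosome 6 and casein genes, the protocadherins and A530020G20Rik with F3, the pairs were Plekhg5 with Tnfrsf25, Gm44154 with Depp1, Slc7a2 with Pdgfrl, Slc39a4 with Kifc2, Dclk2 with Cd1d1, and Kcnj15 with the antisense transcript AC154691.1 across its end, whose reads cannot be told apart from those of Kcnj15 without strand. Sectm1b with Sectm1a, Serpina3h with Serpina3i and Clca3a1 with Clca3a2 are related copies. The 179 expressed genes next to members that were not members themselves had a median log2 ratio of 16IC_7391 to the median of the other lines of 0.32 (interquartile range -0.27 to 0.82), against -0.01 (-0.49 to 0.54) in all 12266 expressed genes outside the set. At least 2 times the highest other line was reached by 18 of them, 10.1% against 3.77%. Some of these neighbours are close copies of a member (C1rb and C4b for example), and the part of shared reads was not tested.

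The longest run was on chromosome 13, where 5 members lay within 361 kb (chr13:62964893-63326096 of GRCm38). All of them lay inside 2010111I01Rik, which RefSeq names Aopep, an aminopeptidase gene. The long gene had 450.0 CPM in 16IC_7391, 78.2 and 67.5 CPM in the other 16IC lines, and 57.8, 90.6 and 46.0 CPM in the EIC lines. Mir23b, on the same strand within it, had 10.8 CPM in 16IC_7391, 0.702 and 0.373 CPM in the other 16IC lines, and 0.458, 0.239 and 0.0579 CPM in the EIC lines, from 169 counts in 16IC_7391 and 1 to 11 counts in the other lines. Gm47585, Gm47602 and Gm16907, also within it, had 18.8, 18.9 and 20.7 CPM in 16IC_7391, at most 4.34, 4.21 and 3.96 CPM in the other 16IC lines, and at most 1.39, 1.60 and 1.43 CPM in the EIC lines. Whether counting used strand is not given, so reads of the smaller loci and of the long gene cannot be told apart, and the 5 members are not 5 independent cases. Fancc, which overlaps the end of the run, had 15.9 CPM in 16IC_7391, 15.3 and 13.5 CPM in the other 16IC lines, and 7.38, 8.96 and 4.46 CPM in the EIC lines. Ptch1, next to it, had 31.6 CPM in 16IC_7391 and 29.6 to 43.4 CPM elsewhere.

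The comparison of 16IC with EIC over all 6 lines asks which genes follow the HER2 form. None of the members was called. edgeR's quasi-likelihood test (Benjamini-Hochberg adjusted p under 0.05) called 1.25% of 13698 genes higher in 16IC and 1.20% lower, and 0 of the 92 members that passed its filter on low counts, while 12 members did not pass. All 92 had a positive log2 fold change of 16IC over EIC (median 2.14), as the choice of members fixes. Higher in 16IC at an unadjusted edgeR p under 0.05 were 22 of them (23.9%), against 12.6% of all genes tested. The same values of 16IC_7391 chose the members, so nothing is read from this share. Limma-voom called 0 of the 92, with 2.10% of all genes, and DESeq2 called 11 (12%), with 15.3% of all genes. In the authors' deposited comparison table, 12 of the 104 members had an adjusted p under 0.05 and 58 an adjusted p of 1. The share of all genes called in that comparison is not given here, so the 12 cannot be judged as many or few. A high value in 1 of the 3 lines of a group raises the group's mean and its spread together: the mean of Ctsd was 3686 ± 3747 CPM over the 16IC lines, against 1341 ± 170.4 CPM over the EIC lines (SD, n = 3 each), with an edgeR adjusted p of 0.315.

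With 16IC_7391 left out, the levels of the members in the other 5 lines, which the rule only caps, can be compared between groups. In 16IC_1984 and 16IC_4982 against the 3 EIC lines, edgeR tested 93 members and called 12 lower in 16IC (12.9%, against 6.82% of all 14262 genes tested) and 1 higher (1.08%, against 6.60%), with 11 members not passing the filter. In both directions together the share called was 14% of the members and 13.4% of all genes tested, so the number of calls was near that of all genes. The median log2 fold change of the tested members was -0.32, against -0.02 over all genes tested. Among all 104 genes, 32 had every EIC line above both 16IC lines (30.8%, against 22.1% of all genes at 10 CPM or more in 16IC_7391), and 23 the reverse (22.1%, against 30.9%).

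The 12 genes called lower were Alpl, Timp3, C1s1, Fmo2, Fst, Fas, Fbln7, BE692007, Gm44873, C1ra, Sectm1a and Atoh8. They were expressed in 16IC_7391, less in EIC, and least in the other 16IC lines. Alpl averaged 0 CPM in the other 16IC lines and 8.32 CPM in EIC, which is at least 43.5-fold lower against a floor of 3 counts per library (edgeR adjusted p = 0.00749). C1ra averaged 3.21 CPM in the other 16IC lines and 17.6 CPM in EIC, with a log2 fold change of -2.53 (edgeR adjusted p = 0.0445). Fst averaged 0.631 CPM in the other 16IC lines and 7.81 CPM in EIC (-3.70, edgeR adjusted p = 0.0185). Fas averaged 1.55 CPM in the other 16IC lines and 6.98 CPM in EIC (-2.26, edgeR adjusted p = 0.025). The gene called higher was Fat4, with 4.67 CPM in the other 16IC lines and 0.992 CPM in EIC (2.13, edgeR adjusted p = 0.0263). With 16IC_1984 or 16IC_4982 left out, or with these closely similar lines averaged to 1 sample, the calls did not hold. Since 1 sample then stands for 16IC, only effect sizes are given. The log2 fold change of C1ra was then -2.44, -2.64 and -2.53. Without EIC_4026 edgeR called 4 of 89 members (4.49%), with 5.6% of all genes. It called 9 of 88 (10.2%) without EIC_7559, with 6.18% of all genes, and 38 of 88 (43.2%) without EIC_NT, with 29.1% of all genes. EIC_4026 and EIC_7559 were also closely similar, with a correlation of 0.978. If they share an origin, the EIC lines are not 3 independent samples and their spread is understated, which was not tested.

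**Figure D4:**
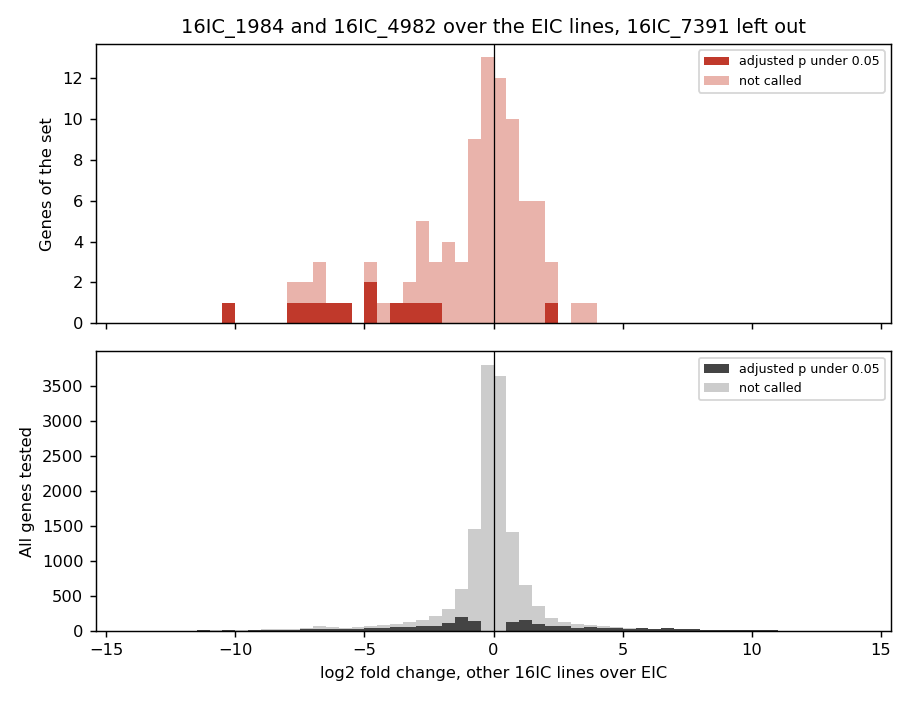
Histograms of the log2 fold change of 16IC_1984 and 16IC_4982 over the EIC lines, with 16IC_7391 left out, for the 93 tested members (top) and all 14262 tested genes (bottom). Dark bars are genes at an edgeR adjusted p under 0.05; in the top panel 12 of the 13 lie left of 0.

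Other genes of these pathways were taken from 26 lists, each summarised by its genes with a mean of at least 1 CPM. Collagens had 6 of 27 genes at 2 times or more the highest other line (Col11a1, Col14a1, Col16a1, Col20a1, Col27a1 and Col9a3) and 1 at 0.5 times or less of the lowest (Col17a1), against 4.46 and 4.27% of all genes. The largest of these in counts was Col16a1, with 694 CPM in 16IC_7391, 33.3 and 38.3 CPM in the other 16IC lines, and 153, 226 and 166 CPM in the EIC lines. Growth factors and their receptors had 8 of 42 higher and 1 lower, metalloproteinases and their inhibitors 4 of 23 higher and 2 lower, and matrix glycoproteins 5 of 42 higher and 2 lower. Members among the higher genes of these lists, such as Col11a1, Col14a1 and Col9a3, pass by the rule, so nothing is read from these counts. Timp1 was among the lower ones, at 0.896 CPM in 16IC_7391, 49.2 and 31.9 CPM in the other 16IC lines, and 129, 112 and 70.6 CPM in the EIC lines, while its relative Timp3 was a member. Over all 6 lines, edgeR called 1 of 30 cytokine, chemokine and complement genes higher in 16IC (Clu), 2 of 28 TGF-beta and BMP genes higher (Ltbp2 and Smad7) and 1 lower (Bmp4), 5 of 38 matrix glycoproteins lower and 0 of 23 collagens, at an adjusted p under 0.05. Over all genes tested in the 6 lines, edgeR called 1.25% higher and 1.20% lower. With 16IC_7391 left out it called 2 of 31 cytokine, chemokine and complement genes higher and 11 lower. It then called 3 of 30 TGF-beta and BMP genes higher and 6 lower. For matrix glycoproteins it called 4 of 42 higher and 13 lower, and for collagens 4 of 25 higher and 4 lower. Over all genes tested without 16IC_7391, 6.60% were called higher and 6.82% lower.

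The lists of markers of other cells were few in expressed genes, and 0 of 10 fibroblast markers, 0 of 2 endothelial, 0 of 3 leukocyte and 0 of 5 adipocyte markers with a mean of at least 1 CPM were at 2 times or more the highest other line in 16IC_7391. The same was reached by 2 of 3 smooth muscle and pericyte markers (Lmod1 and Mcam), 1 of 7 Schwann and neural markers (S100b) and 1 of 7 cartilage and bone markers (Alpl, a member). The remaining smooth muscle and pericyte marker, Notch3, was at 0.5 times or less of the lowest other line, as was the cartilage and bone marker Phex. Over all genes the shares were 4.46% at the high side and 4.27% at the low side. Nothing is read from counts in lists this small. Lmod1, a muscle actin nucleator, had 40.9 CPM in 16IC_7391, 5.62 and 14 CPM in the other 16IC lines, and 0.401, 0.0597 and 0.637 CPM in the EIC lines. Smooth muscle and pericyte markers summed to 57.5 CPM in 16IC_7391, 104 and 131 CPM in the other 16IC lines, and 8.99, 26.3 and 26.3 CPM in the EIC lines. Fibroblast markers summed to 299 CPM in 16IC_7391, 24.1 and 30.7 CPM in the other 16IC lines, and 536, 769 and 773 CPM in the EIC lines. Leukocyte markers summed to 367 CPM in 16IC_7391, 94.1 and 95.6 CPM in the other 16IC lines, and 75.1, 219 and 117 CPM in the EIC lines, while Ptprc, which defines leukocytes, was at 0 counts in 16IC_7391. Most of the leukocyte sum was Cd14, a receptor for bacterial lipid, with 347 CPM in 16IC_7391, 78.6 and 82.3 CPM in the other 16IC lines, and 57.2, 204 and 72.4 CPM in the EIC lines. Cd14 is also on the list of luminal markers. The macrophage marker Cd68 had 18.8 CPM in 16IC_7391, 10.3 and 7.52 CPM in the other 16IC lines, and 17.6, 14.2 and 44.4 CPM in the EIC lines. Mesenchymal markers summed to 4969 CPM in 16IC_7391, 987 and 683 CPM in the other 16IC lines, and 6691, 10709 and 7153 CPM in the EIC lines, with Vim at 2071 CPM in 16IC_7391. Endothelial markers summed to 74.1 CPM in 16IC_7391, 7.66 and 7.95 CPM in the other 16IC lines, and 27.5, 268 and 34.5 CPM in the EIC lines, and adipocyte markers to 71.2 CPM in 16IC_7391, 20.1 and 27.1 CPM in the other 16IC lines, and 113, 101 and 83.4 CPM in the EIC lines. Most of the endothelial sum was Flt1, a receptor for vascular growth factors, with 68.8 CPM in 16IC_7391, 4.53 and 5.03 CPM in the other 16IC lines, and 14.8, 266 and 27.0 CPM in the EIC lines. The part of these markers in the levels of the members was not tested.

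Lists chosen after the values were seen gave the largest shares in the other direction. They were drawn from these same data and describe 1 line, so nothing is read from the shares. Of 28 proliferation genes, 16 were at 0.5 times or less of the lowest other line in 16IC_7391 (57.1%, against 4.27% of all genes) and 0 were at 2 times or more the highest. Mki67, a marker of cycling cells, had 76.0 CPM in 16IC_7391, 367 and 229 CPM in the other 16IC lines, and 258, 271 and 155 CPM in the EIC lines. Of 20 ERK target genes, 9 were at 0.5 times or less (45.0%) and 0 at 2 times or more; Dusp6, an ERK phosphatase induced by ERK itself, had 41.7 CPM in 16IC_7391, 115 and 179.8 CPM in the other 16IC lines, and 178, 96.6 and 284 CPM in the EIC lines. No gene of either list was called between 16IC and EIC over the 6 lines (edgeR, 28 and 19 genes tested). Over all genes tested 1.25% were called higher and 1.20% lower, so few calls could be looked for in lists of this size. The part of these lower levels in the levels of the members was not tested.

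**Figure D5:**
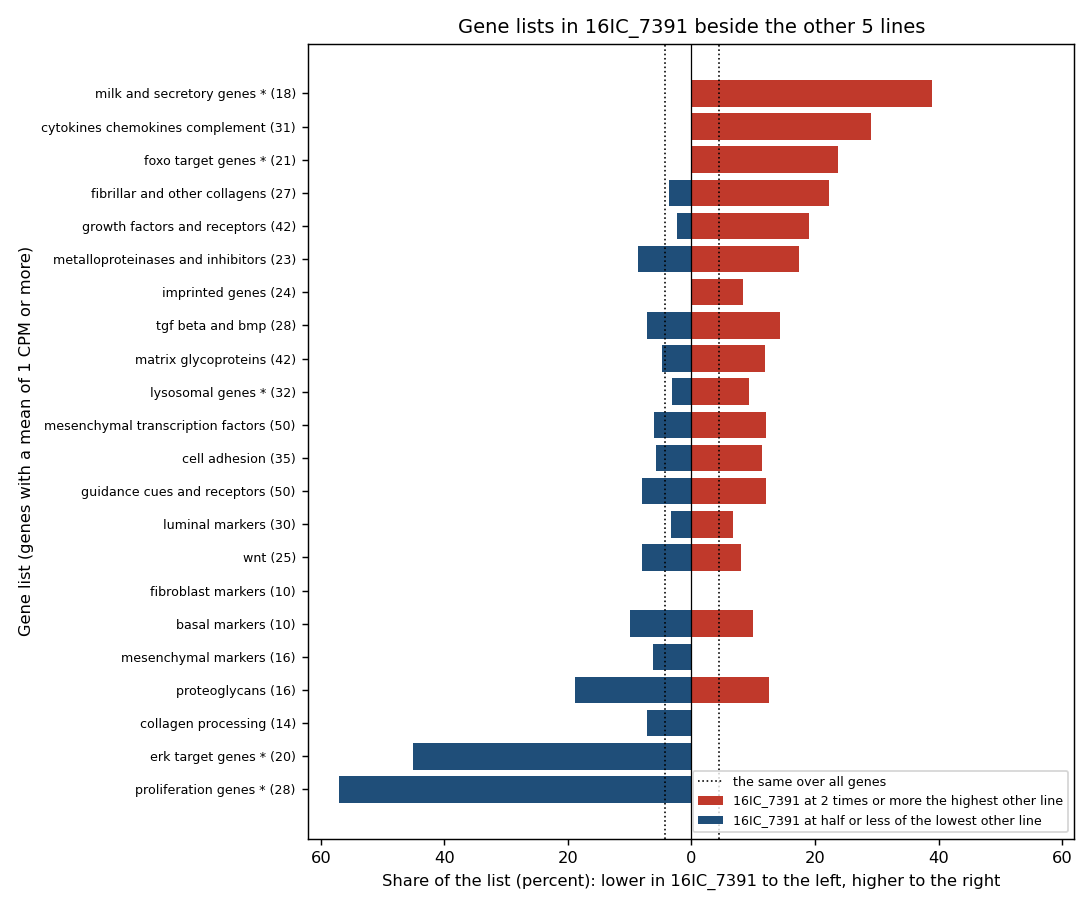
Share of each list in percent (lists with at least 10 genes at a mean of 1 CPM or more, that number in brackets) at 2 times or more the highest other line (red, right) or at 0.5 times or less of the lowest (blue, left) in 16IC_7391. Dotted lines give 4.46 and 4.27% over all genes. Asterisks mark lists chosen after the values were seen, among them proliferation and ERK target genes at the bottom and milk genes at the top. Nothing is read from the shares of those lists.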

How the data were processed

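RNA of 6 cell lines was sequenced from libraries made with the NEBNext Ultra II kit, per the labels' protocols. The submitters' processing notes list STAR, Trimmomatic, HTSeq, limma and edgeR, with the builds GRCm38 and mm10. The sources used here give no role, version, setting or strandedness for them. The authors deposited a read count per gene and line, the same count divided by a size factor per line as a normalised signal, and FPKM from the gene length in the table. The log2 fold change, p-value and adjusted p-value of their own comparison were deposited by the authors in the same table.

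CPM was computed here as the deposited count divided by the column total and scaled to 1000000. Members were found by the rule in the text. The members, roles and lists were chosen with earlier results of these data known. The 2 comparisons of 16IC with EIC used edgeR 4.0.16 (R 4.3.3): filterByExpr with its minimum count of 10, TMM factors, the quasi-likelihood test and Benjamini-Hochberg adjustment over all genes tested. Alternatives were limma-voom (limma 3.58.1), DESeq2 1.42.0, other filters, scalings and thresholds, and leaving out each line. Intervals of ratios are exact 95% binomial intervals; they and floors of 3 counts per library cover only the error of counting, as the labels name no molecular identifiers. Sequences came from RefSeq tables of GRCm38.p6.

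Named by rule were the 20 members highest in CPM, the 12 with the largest ratio, members on the 26 lists or in runs, the 3 genes nearest each threshold on each side, and up to 4 other genes per list. Other genes, among them the members named to complete a role, all genes of 5 added lists and Erbb2, Epcam, Fancc and Ptch1, were chosen after their values were seen. The values of 1 member are not reported here.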

Additional observations from a re-analysis of the deposited data

How the results depend on the processing

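The number of members stayed within 1.5 times of 104 under TMM sizes (100, of which 97 are shared), DESeq2 size factors (104, 99 shared), totals without mitochondrial genes (111), minima of 5 and 20 CPM (142 and 80), a ratio of at least 3 (155), and the authors' FPKM for the ratio (112, 101 shared), the last added after the data were seen. It was 35 at a ratio of at least 8. Leaving out each other line gave 113 to 141, the highest without EIC_NT. Over the 6 lines, edgeR called 0 members under both scalings, each filter and an adjusted p under 0.1, and so did limma-voom; DESeq2 called 11 (15.3% of all genes called), and leaving out each line gave 0 to 13, the highest without 16IC_7391. With 16IC_7391 left out, the 13 calls (13.4% of all genes called) became 7 with no filter on low counts (4.65% of all genes), 33 with DESeq2 (26.9%), 25 at an adjusted p under 0.1 (22.6%), 0 to 38 when each line was left out (0 to 29.1%), and 0 with 16IC_1984 and 16IC_4982 averaged (0.0331%), which was tried after the data were seen; the lone 16IC sample is then assumed to vary like EIC. They stayed at 13 with DESeq2 size factors and limma-voom (8 of the 13 genes shared) and were 14 with at least 1 CPM. No direction of a called gene turned round. The cause of these shifts was not tested. No paired analysis was possible because replicate numbers follow the order of the samples and the labels pair no lines. A single unreplicated line and small counts at low members limit what the values can show.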

Other observations

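The mirror of the rule, at least 10 CPM in every other line and at least 4 times the level in 16IC_7391, found 29 genes low only in 16IC_7391, against 3, 0, 2, 63 and 1 in 16IC_1984, 16IC_4982, EIC_4026, EIC_NT and EIC_7559. As with the rule itself, these counts depend on how alike the lines are. The genes named from the 29 were chosen after their values were seen. Among them was Ccnd1, cyclin D1, with 209.6 CPM in 16IC_7391, 948 and 1161 CPM in the other 16IC lines, and 1473, 1035 and 1516 CPM in the EIC lines. The chromatin gene Hmga2 had 80.1 CPM in 16IC_7391, 355 and 496 CPM in the other 16IC lines, and 792, 654 and 578 CPM in the EIC lines. Nt5e, which makes adenosine outside the cell, had 22.9 CPM in 16IC_7391, 279 and 384 CPM in the other 16IC lines, and 175, 173 and 149 CPM in the EIC lines. The replication genes Cdt1, Rrm2 and Dbf4, the ERK-induced factor Etv4 and the EGF-family ligand Areg were in the same set. Ckap4 and Klk8 were nearly absent from 16IC_7391, at 0.768 and 0.640 CPM, against at least 35.3 and 22.3 CPM in the other lines.

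On chromosome 14, which the rule leaves out, 4 genes passed both thresholds. Nalcn, a sodium leak channel, had 116 CPM in 16IC_7391, 0.255 and 0.373 CPM in the other 16IC lines, and 0.229, 0.119 and 0.0579 CPM in the EIC lines. The others were Kcnma1, Dach1 and Wnt5a, at 28.9, 13.6 and 12.6 CPM in 16IC_7391.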
